A study of Mus musculus with 12 samples.

Results

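The genes described here encode the proteins that store, release and take up calcium in the sarcoplasmic reticulum of heart muscle, with the surface exchanger and the kinase that act on the same calcium. The 10 genes were chosen by name and not by a test on their values, but with earlier results of these data known. They are Ryr2, Casq2, Trdn, Jph2 and Hrc on the release side, Atp2a2, Pln and Sln on the uptake side, Slc8a1 for extrusion and Camk2d as the kinase. All 10 were found among the 29564 genes of the deposited count table. A filter on low counts kept 14333 genes for testing, among them 8 of the 10. The other 2 were Sln, with at most 5 estimated counts in any library, and Slc8a1, which was listed at 0 in every library.

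In heart muscle, calcium that enters through surface channels opens the ryanodine receptor Ryr2, and the calcium released from the sarcoplasmic reticulum starts contraction. Relaxation follows when the pump SERCA2a, encoded by Atp2a2, returns calcium to the store and the sodium-calcium exchanger carries the rest out of the cell. Phospholamban (Pln) and sarcolipin (Sln) restrain the pump, and the kinase CaMKII delta (Camk2d) phosphorylates both phospholamban and the ryanodine receptor.

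Polyadenylated RNA of left ventricles came from 12 wild-type C57BL6 mice, each giving 1 library, with 4 mice in each of 3 groups. Non-failing mice on vehicle (Control-Veh) are called controls. In HFpEF-Veh mice, which also received vehicle, heart failure with preserved ejection fraction was modelled by feeding a high-fat diet together with L-NAME, a blocker of nitric oxide synthases. HFpEF-TYA-018 mice, called treated mice, had the same diet and L-NAME and received oral TYA-018, which blocks the deacetylase HDAC6, at 15 mg/kg. The title of the series speaks of 1 dose, and the study's text places the collection of the hearts hours after it, whereas the treatment protocol in the labels describes daily dosing, and the title was followed. The study's methods name male mice, and the labels name neither age nor sex nor a batch. Libraries carry the letter C (controls), V (HFpEF-Veh) or T (treated mice) and a number from 1 to 4, in order of animal number. Animal numbers ran together within each group, so anything that followed their order cannot be told apart from the group. A left ventricle holds several cell types, and fewer heart muscle cells or less RNA per cell cannot be told apart in such samples.

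Promoter sequences from RefSeq (GRCm38.p6, 250 bases before to 50 bases after each start site) were matched for 7 of the 10 genes, those other than Atp2a2, Sln and Trdn. The promoters of Hrc and Pln are shown because the RNA of both was lower in the model and higher after the dose, and that of Casq2 because its RNA was higher in the model. They are Hrc at chr7:45335019-45335318 (plus strand), Pln at chr10:53337436-53337735 (plus strand) and Casq2 at chr3:102086165-102086464 (plus strand), each written 5′ to 3′ with matches to the searched motifs in capitals.
Hrc: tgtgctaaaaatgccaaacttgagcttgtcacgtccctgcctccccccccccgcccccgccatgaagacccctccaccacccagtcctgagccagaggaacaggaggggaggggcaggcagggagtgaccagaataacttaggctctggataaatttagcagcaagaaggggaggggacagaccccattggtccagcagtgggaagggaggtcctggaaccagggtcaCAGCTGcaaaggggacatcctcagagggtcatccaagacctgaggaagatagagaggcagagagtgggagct
Pln: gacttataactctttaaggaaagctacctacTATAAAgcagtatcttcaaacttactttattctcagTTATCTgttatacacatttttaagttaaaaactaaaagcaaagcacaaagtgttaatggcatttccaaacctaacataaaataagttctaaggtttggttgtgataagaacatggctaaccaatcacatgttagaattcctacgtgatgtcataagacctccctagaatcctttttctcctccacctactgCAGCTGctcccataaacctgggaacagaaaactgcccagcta
Casq2: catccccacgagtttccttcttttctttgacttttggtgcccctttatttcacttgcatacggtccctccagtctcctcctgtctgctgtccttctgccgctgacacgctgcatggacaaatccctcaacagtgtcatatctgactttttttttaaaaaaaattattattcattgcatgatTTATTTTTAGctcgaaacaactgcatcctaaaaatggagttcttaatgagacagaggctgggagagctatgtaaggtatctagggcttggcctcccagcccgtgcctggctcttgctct
The motifs, searched separately on both strands and free to overlap, were the MEF2 and CArG boxes of muscle genes, AGATAA for GATA factors, the E-box CAGCTG, then CATTCC for TEAD factors, and the TATA box TATAAA. The capitals in Hrc mark CAGCTG from 22 to 17 bases before the start site. Those in Pln mark TATAAA from 219 to 214 bases before the start site, then in the minus strand AGATAA from 183 to 178 bases before it. The last in Pln mark the E-box CAGCTG from 9 to 14 bases after the start site. Those in Casq2 mark a MEF2 box from 69 to 60 bases before the start site. CAGCTG was also found in the promoters of Jph2, and AGATAA in that of Slc8a1, while the promoters of Ryr2 and Camk2d held no match. Of 32851 promoters of this length, 16.3% held CAGCTG, 13.6% TATAAA, 11.2% AGATAA, 3.19% a MEF2 box, 14.7% CATTCC and 1.63% a CArG box. These are letter matches, and binding was not measured.

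Estimated counts per library summed to between 61.2 M and 83.9 M (M, 1e06), the highest in T1. The 10 calcium handling genes together took 0.749% ± 0.0581 of all counts among controls, 0.64% ± 0.0479 among HFpEF-Veh mice and 0.861% ± 0.0706 among treated mice (SD, n = 4). Mitochondrially encoded genes held 38.8%, 45.1% and 38.9% of the counts of these groups, and without them the 10 genes took 1.23% ± 0.126, 1.17% ± 0.109 and 1.41% ± 0.0659. These shares rest largely on Atp2a2 and Pln, with 3131835 and 1428921 counts over the 12 libraries, followed by Hrc with 572761. Annotated genes overlap Ryr2 (3), Casq2 (2), Trdn (8), Atp2a2 (3), Pln (2), Slc8a1 (2) and Camk2d (8), and their part in the counts was not tested. T1 stood apart from the other 3 libraries of its group in Pln and Camk2d, and the differences of treated mice in these genes and in the ratio of Atp2a2 to Pln are given with and without it. V2 stood apart in skeletal muscle markers, which summed to 20.5 CPM (counts per 1e06 counts) there and to between 1.23 and 2.81 CPM in the other 11 libraries.

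Levels between genes were compared per transcript length, in the deposited TPM (transcripts per 1e06 transcripts). Atp2a2 was the most abundant at 300 ± 87.2 TPM and Pln was next at 261 ± 65 TPM (SD over 12 libraries). Atp2a2 exceeded Pln in 10 of 12 libraries, so the order of these neighbours was not separated over all of them. By group, it did so in 2 of 4 controls, 4 of 4 HFpEF-Veh and 4 of 4 treated libraries. Hrc followed at 134 ± 36.9 TPM, Casq2 at 56.7 ± 16.4 TPM, Jph2 at 11 ± 4.22 TPM and Ryr2 at 6.41 ± 2.06 TPM. Each of these 4 was below the gene before it in all 12 libraries. The lowest were Camk2d at 5.14 ± 1.96 TPM and Trdn at 4.8 ± 1.49 TPM, with Ryr2 above Camk2d in 9 and Camk2d above Trdn in 8 of 12 libraries. The pump and its inhibitor thus stood far above the release channel per transcript length, and the 3 least abundant genes lay within each other's spread.

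**Figure D1:**
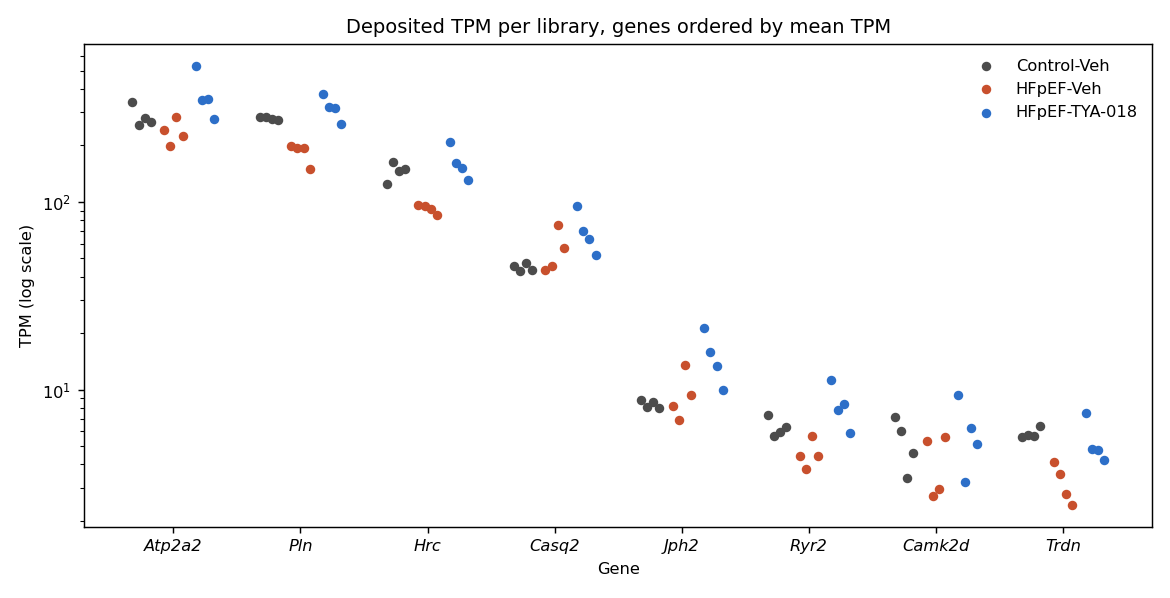
Deposited TPM (log scale) of the 8 tested calcium handling genes, ordered by mean, with 1 point per library and colours for the 3 groups (n = 4). Atp2a2 and Pln lie between 150.3 and 530.2 TPM, and Ryr2, Camk2d and Trdn between 2.433 and 11.25 TPM.

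To find what the model changed, HFpEF-Veh was compared with Control-Veh. In HFpEF-Veh, triadin (Trdn) decreased by 24.6%, the histidine-rich calcium binding protein (Hrc) decreased by 20.5% and phospholamban (Pln) decreased by 15.3%, and cardiac calsequestrin (Casq2) was 24.1% higher. In counts, 1 of the 8 tested genes was called higher and 3 were called lower, where a call is an edgeR quasi-likelihood adjusted p under 0.05 over all genes tested. Of all 14333 genes, 10.9% were called higher and 10.3% lower in this comparison. The groups did not overlap for 4 of the 8 genes, as for 23.5% of all genes. The median log2 fold change was -0.13 over the 8 and -0.01 over all genes tested.

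To find what differed after the dose, treated mice were set against HFpEF-Veh mice. Hrc was 27.8% higher, the pump gene Atp2a2 24.3% higher and Pln 22.3% higher, and the kinase gene Camk2d decreased by 15.3%. Thus 3 of the 8 were called higher and 1 was called lower, against 8.93% and 10.4% of all genes tested. The values of the groups lay apart for 5 of the 8 (25.1% of all genes), namely Ryr2, Casq2, Hrc, Atp2a2 and Camk2d. The median log2 fold change was 0.25 over the 8 and 0 over all genes tested. With no filter on low counts Atp2a2, Pln and Camk2d were no longer called (edgeR adjusted p 0.0779, 0.061 and 0.0529), and of the 4 calls 1 was left without V1 or T2 and 2 without V2, T1 or T3. DESeq2 called 5 higher and 1 lower, and 3411 of all 14333 genes. With limma on log2(TPM + 1) 5 and 0 were called, on a scale where the median log2 fold change of all genes was 0.17. With the deposited effective lengths as offset edgeR called 2 and 0, and 1217 of all genes. Camk2d lay above 0 on both length scales. On TPM rescaled without mitochondrially encoded genes limma called 2 higher and 0 lower, and 718 of 14320 genes. This comparison shares its HFpEF-Veh libraries with the first, so a low or high value in them enters both with opposite signs.

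Treated mice were also compared with controls. Casq2 was 36.2% and the junctional protein gene Jph2 36.7% higher in treated mice, whereas Trdn decreased by 21.7% and Camk2d decreased by 16.9%. With 2 called higher and 2 called lower of 8, the background was 3.12% and 2.74% of all genes. All 4 calls were lost with effective lengths as offset (edgeR) and on each TPM scale (limma), where Camk2d turned positive. Fewer genes of any kind were called there, 203 with effective lengths as offset and between 9 and 25 on the TPM scales. The Camk2d call was lost in each fit without 1 library. The groups were free of overlap for 4 of the 8, namely Casq2, Trdn, Jph2 and Camk2d, and for 14.8% of all genes. The median log2 fold change was 0.07 over the 8 and -0.02 over all genes tested.

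**Figure D2:**
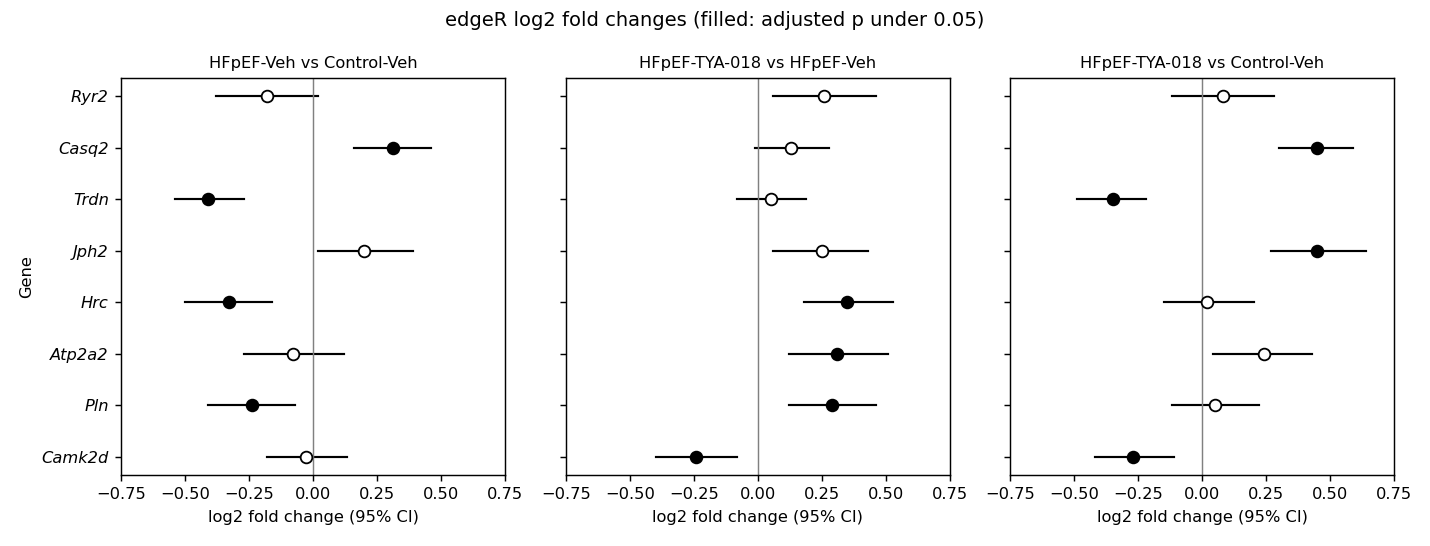
edgeR log2 fold changes of the 8 tested genes in the 3 comparisons, with 95% confidence intervals and filled points for an adjusted p under 0.05. Hrc and Pln lie below 0 in HFpEF-Veh against Control-Veh and above 0 in HFpEF-TYA-018 against HFpEF-Veh, while Trdn stays near 0 in the second.

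Ryr2 encodes the release channel (chromosome 13, 11553102 to 12106945, minus strand, GRCm38, as are all positions here). Its values in CPM, counts per 1e06 counts after TMM scaling, were 437.7, 342.8, 387 and 390.7 in C1 to C4. They were 338.5, 294.8, 373.4 and 371.2 in V1 to V4, and 409.7, 401.6, 449.5 and 389.3 in T1 to T4. The 4 treated libraries lay above all 4 HFpEF-Veh libraries, whereas both overlapped with Control-Veh. The log2 fold change was 0.26 (SE 0.092, 95% CI 0.06 to 0.46) after the dose, with an edgeR adjusted p of 0.068 that missed the threshold. It was called with DESeq2 (adjusted p = 0.0282) and with the deposited effective lengths as offset, where the log2 fold change was 0.39 (edgeR adjusted p = 0.0302). In HFpEF-Veh against Control-Veh it was -0.18 (95% CI -0.38 to 0.02, edgeR adjusted p = 0.191), and in treated mice against controls 0.08 (95% CI -0.12 to 0.28, edgeR adjusted p = 0.652).

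Casq2 encodes calsequestrin, the protein that binds calcium inside the store (chromosome 3, 102086415 to 102146514, plus strand). It stood at 328, 307.2, 372.6 and 330 CPM in C1 to C4, at 382.5, 416.7, 425 and 435.8 CPM in V1 to V4 and at 469.1, 459.7, 446.2 and 447 CPM in T1 to T4. The groups formed 3 separate ranges, with controls lowest and treated mice highest. Relative to controls, Casq2 was higher in HFpEF-Veh by 0.31 on the log2 scale (SE 0.068, 95% CI 0.16 to 0.46, edgeR adjusted p = 0.00819). Treated mice exceeded Control-Veh by 0.45 (SE 0.068, 95% CI 0.3 to 0.59, edgeR adjusted p = 0.0047). Both calls held in each of the 8 fits that left out 1 of the libraries compared. On the TPM scale the differences kept their sign, but neither was called, with limma adjusted p of 0.466 and 0.211 on log2(TPM + 1). The second was also lost with effective lengths as offset, at 0.39 (edgeR adjusted p = 0.135). The step from HFpEF-Veh to HFpEF-TYA-018 was 0.13 (95% CI -0.01 to 0.28) and missed the threshold (edgeR adjusted p = 0.189). With effective lengths as offset that step had the opposite sign, at -0.12 (edgeR adjusted p = 0.616).

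Trdn encodes triadin, which anchors calsequestrin to the ryanodine receptor (chromosome 10, 33080554 to 33476709, plus strand). Its CPM was 44.52, 47.72, 47.09 and 53.02 in C1 to C4, 38.32, 36.48, 34.68 and 35.64 in V1 to V4, and 40.03, 36.04, 36.13 and 38.35 in T1 to T4. All 8 libraries of the model, treated or not, lay below all 4 Control-Veh libraries. Its log2 fold change in HFpEF-Veh was -0.41 (SE 0.062, 95% CI -0.54 to -0.27, edgeR adjusted p = 0.00144). In treated mice against controls it was -0.35 (SE 0.062, 95% CI -0.49 to -0.22, edgeR adjusted p = 0.00932). Leaving out any 1 library kept both calls. Between HFpEF-TYA-018 and HFpEF-Veh the log2 fold change was 0.05 (95% CI -0.08 to 0.19, edgeR adjusted p = 0.59). Its effective length was 4379 and 4321 bases in V3 and V4 and between 2677 and 3176 bases in the other libraries. On log2(TPM + 1) the step after the dose was 0.57 (limma adjusted p = 0.0413), where the median of all genes was 0.17, and the difference between treated and Control-Veh mice was -0.14 (limma adjusted p = 0.67). With effective lengths as offset the latter was -0.4 and not called (edgeR adjusted p = 0.184).

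Jph2 encodes junctophilin 2, which holds the store close to the surface membrane (chromosome 2, 163336242 to 163397993, minus strand). It measured 211.2, 213.2, 232.9 and 211.4 CPM in C1 to C4, 246.2, 217.3, 280.6 and 255.8 CPM in V1 to V4 and 298.1, 331.8, 288.5 and 269.2 CPM in T1 to T4. Values in HFpEF-Veh lay between those of the other groups and overlapped with both, while HFpEF-TYA-018 and Control-Veh lay apart. The log2 fold change between these was 0.45 (SE 0.085, 95% CI 0.27 to 0.64, edgeR adjusted p = 0.0133), called in all 8 fits without 1 library. It was 0.58 with effective lengths as offset, where the call was lost (edgeR adjusted p = 0.0696). The separate steps of 0.2 in the model (95% CI 0.02 to 0.39, edgeR adjusted p = 0.109) and 0.25 after the dose (95% CI 0.06 to 0.43, edgeR adjusted p = 0.0605) missed the threshold, and DESeq2 called the latter (adjusted p = 0.0239).

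Hrc encodes the histidine-rich calcium binding protein of the store, which also binds triadin and the pump (chromosome 7, 45335290 to 45338974, plus strand). Libraries C1 to C4 held 636.1, 833.9, 757.7 and 790.6 CPM, V1 to V4 held 587.6, 573.7, 602.9 and 634.4 CPM, and T1 to T4 held 806.7, 773.5, 737.9 and 747.8 CPM. The 4 HFpEF-Veh libraries were the lowest of the 12, with V4 just under C1. Relative to controls, the log2 fold change of Hrc in HFpEF-Veh was -0.33 (SE 0.08, 95% CI -0.5 to -0.16, edgeR adjusted p = 0.013). It was higher in treated than in HFpEF-Veh mice by 0.35 (SE 0.08, 95% CI 0.18 to 0.53, edgeR adjusted p = 0.0109). Both calls were kept without any 1 library, with the largest edgeR adjusted p at 0.0416 and 0.0358. The second was lost with effective lengths as offset at 0.36 on the log2 scale (edgeR adjusted p = 0.0515). Treated and Control-Veh mice differed by 0.02 (95% CI -0.15 to 0.2, edgeR adjusted p = 0.904), a value that changed sign without C1 (-0.05).

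**Figure D3:**
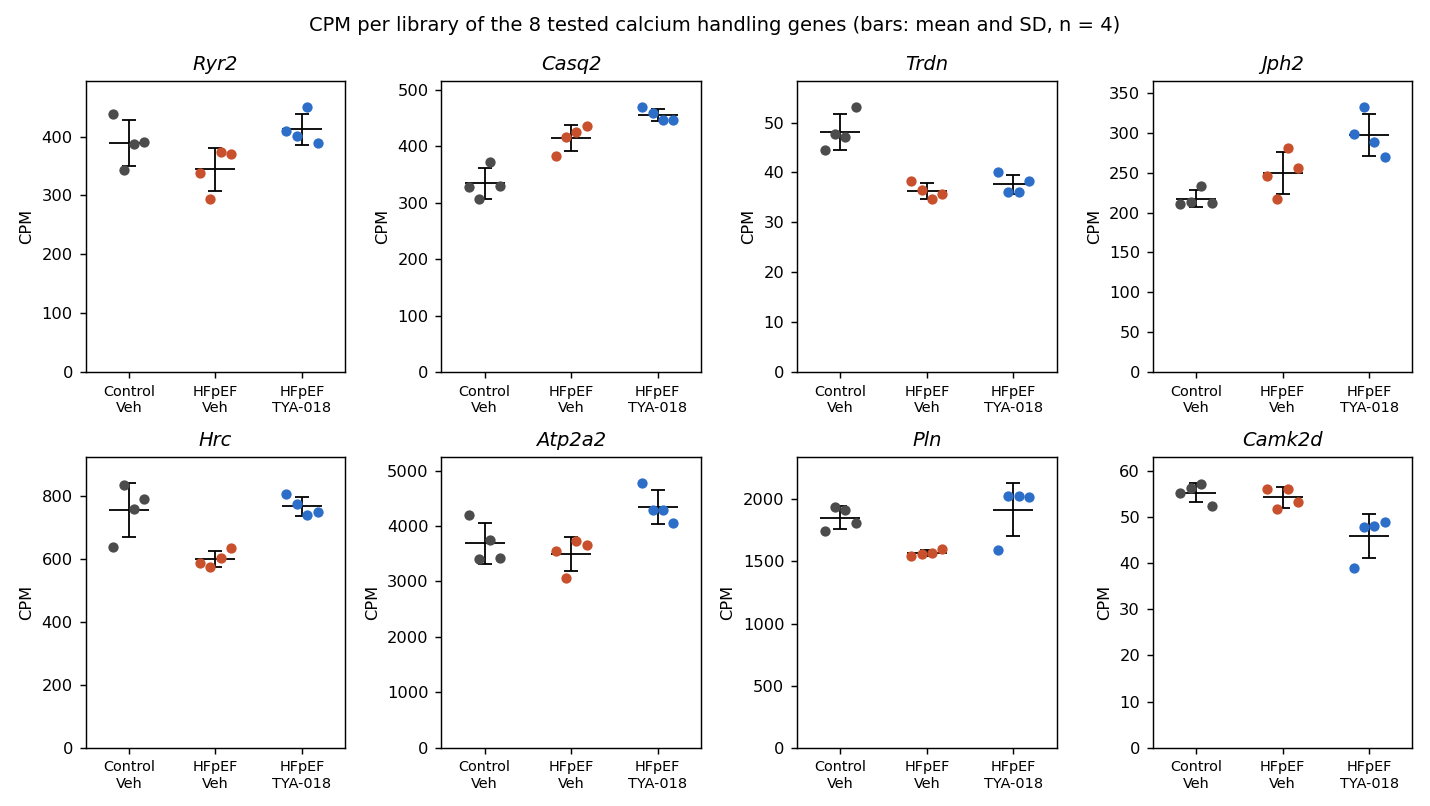
CPM after TMM scaling in each of the 12 libraries for the 8 tested genes, by group, with black bars for mean and SD (n = 4) and each axis starting at 0. Trdn is lower in both groups of the model, Hrc is lowest in HFpEF-Veh, Casq2 lies in 3 separate ranges, and T1 is the low point of Pln and Camk2d in HFpEF-TYA-018.

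Atp2a2 encodes SERCA2a, the pump that refills the store (chromosome 5, 122453513 to 122502225, minus strand). It shares 3.31% of its 50-base stretches with the annotated gene Gm30970. It counted 4198, 3402, 3741 and 3414 CPM in C1 to C4 and 3540, 3055, 3734 and 3660 CPM in V1 to V4. In T1 to T4 it counted 4772, 4287, 4285 and 4049 CPM, above every HFpEF-Veh library, and T4 alone was under a control library (C1). Between HFpEF-Veh and controls the log2 fold change was -0.08 and missed the threshold (95% CI -0.27 to 0.12, edgeR adjusted p = 0.58). Treated mice exceeded HFpEF-Veh by 0.31 (SE 0.09, 95% CI 0.12 to 0.51, edgeR adjusted p = 0.0302). This call was lost when V1, V2, T1, T2 or T3 was left out, with an edgeR adjusted p of up to 0.093 (without T1). Over all 8 fits without 1 library the log2 fold change ranged from 0.25 (without V2) to 0.35 (without V3). With effective lengths as offset the log2 fold change was 0.2 (edgeR adjusted p = 0.195). Against Control-Veh the treated mice differed by 0.24 (95% CI 0.04 to 0.43, edgeR adjusted p = 0.142).

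Pln encodes phospholamban, the main inhibitor of the pump in the ventricle (chromosome 10, 53337667 to 53345987, plus strand), and overlaps Cep85l on the opposite strand. Its level was 1743, 1937, 1917 and 1806 CPM in C1 to C4, a narrow 1540, 1563, 1570 and 1596 CPM in V1 to V4, and 1595, 2026, 2027 and 2015 CPM in T1 to T4. HFpEF-Veh lay below all of Control-Veh, and 3 of 4 treated libraries lay above all others of the series, while T1 stayed within the range of HFpEF-Veh. In HFpEF-Veh the log2 fold change of Pln was -0.24 (SE 0.079, 95% CI -0.41 to -0.07, edgeR adjusted p = 0.0497). That call lay at the threshold, and it was lost with no filter on low counts (edgeR adjusted p = 0.117), with RLE scaling (edgeR adjusted p = 0.0547) and without C2, C3, C4, V1, V2, V3 or V4 (largest edgeR adjusted p 0.112). It was kept with effective lengths as offset, at -0.39 (edgeR adjusted p = 0.0219), and on log2(TPM + 1), at -0.61 (limma adjusted p = 0.0482). After the dose Pln was higher by 0.29 (SE 0.08, 95% CI 0.12 to 0.46, edgeR adjusted p = 0.0255), and by 0.37 without T1 (edgeR adjusted p = 0.00645). This rise was not called without V1, V2, V3, T2, T3 or T4 (largest edgeR adjusted p 0.0761). In treated mice against controls the difference was 0.05 (95% CI -0.12 to 0.22, edgeR adjusted p = 0.768), 0.13 without T1 (edgeR adjusted p = 0.267) and -0.04 with effective lengths as offset.

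Sarcolipin, encoded by Sln, restrains the same pump and is known from atrial and skeletal muscle (chromosome 9, 53850164 to 53854560, plus strand). Its estimated counts were 5, 0, 2 and 3 in C1 to C4, 0, 0, 1 and 2 in V1 to V4 and 0, 1, 2 and 0 in T1 to T4. A count of 0 still allows up to 3 counts, or between 0.0319 and 0.0521 CPM depending on the library, for counting error only. The highest value was 0.0678 CPM in C1, from 5 counts, where this limit was 0.0407 CPM. At so few counts no fold change is given, and a difference between groups was not detectable at this depth. The atrial light chains Myl7 and Myl4 were low as well. For controls, HFpEF-Veh and treated mice Myl7 stood at 0.186 ± 0.124, 0.0541 ± 0.0293 and 0.142 ± 0.0718 CPM, and Myl4 at 2.34 ± 0.26, 2.2 ± 0.287 and 2.14 ± 0.29 CPM. Other atrial markers averaged, in the same order, 0.0883, 0.236 and 0.167 CPM (Bmp10), 1.43, 1.93 and 1.63 CPM (Dkk3) and 3.86, 2.41 and 2.99 CPM (Sbk2). The atrial marker Nppa was not low, at 191 ± 50.3, 112 ± 39.2 and 148 ± 10.5 CPM.

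Slc8a1 encodes the sodium-calcium exchanger, which is known to carry calcium out of heart muscle cells (chromosome 17, 81373105 to 81738377, minus strand). It was listed at 0 counts and 0 TPM in all 12 libraries, with the same effective length of 2751 bases in each. It was 1 of 8885 genes of the table listed at 0 throughout, and whether this is a failed estimate was not tested. No comparison was made for it.

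Camk2d encodes the delta form of the calcium and calmodulin dependent kinase CaMKII (chromosome 3, 126596302 to 126846326, plus strand). It measured 55.27, 56.2, 57.15 and 52.36 CPM in C1 to C4 and 56.1, 51.63, 56.07 and 53.2 CPM in V1 to V4, ranges that overlapped. In T1 to T4 it measured 38.88, 47.87, 48.11 and 48.9 CPM, below all 8 vehicle libraries. After the dose its log2 fold change was -0.24 (SE 0.072, 95% CI -0.4 to -0.08, edgeR adjusted p = 0.0352). The call was lost without V1, V3, V4, T1 or T2, and without T1 the value was -0.17 (edgeR adjusted p = 0.0655). Against Control-Veh the treated mice differed by -0.27 (SE 0.072, 95% CI -0.42 to -0.11, edgeR adjusted p = 0.049), a call that was lost in each of the 8 fits without 1 library (edgeR adjusted p from 0.0574 to 0.115). Without T1 it was -0.19 (edgeR adjusted p = 0.0754). Between the vehicle groups the log2 fold change was -0.03 (95% CI -0.18 to 0.13, edgeR adjusted p = 0.83). The effective length of Camk2d, a gene with 28 annotated transcripts, ranged from 2084 bases in T1 to 6637 bases in V3. With effective lengths as offset its step after the dose was 0.02 (edgeR adjusted p = 0.977), and on log2(TPM + 1) it was 0.41 (limma adjusted p = 0.299). The direction of Camk2d thus turned with the length scale.

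The balance between pump and inhibitor was followed as the ratio of Atp2a2 to Pln counts within each library, which does not depend on library scaling. On the log2 scale it was 1.268, 0.812, 0.965 and 0.919 in C1 to C4, 1.201, 0.967, 1.25 and 1.198 in V1 to V4 and 1.581, 1.081, 1.08 and 1.007 in T1 to T4. The groups overlapped, and T1 was the highest of all 12. The mean log2 ratio was 0.99 ± 0.195 for controls, 1.15 ± 0.127 for HFpEF-Veh and 1.19 ± 0.265 for treated mice (SD, n = 4). No difference passed a two-sided exact permutation test, with 0.16 between HFpEF-Veh and Control-Veh (p = 0.286, 0.429 adjusted over 3 tests). The exact permutation test gave p = 0.914 for the 0.03 between HFpEF-TYA-018 and HFpEF-Veh, and p = 0.286 (0.429 adjusted) for the 0.2 between HFpEF-TYA-018 and Control-Veh. The smallest p this design allows is 0.0286 before adjustment, so that 1 difference alone could not pass the threshold once adjusted over 3 tests. The 0.16 was 0.33 with TPM, 0.26 without C1 and 0.1 without C2, and the 0.2 was 0.06 without T1 and 0.29 without C1. The 0.03 became -0.1 without T1 and -0.14 with TPM.

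**Figure D4:**
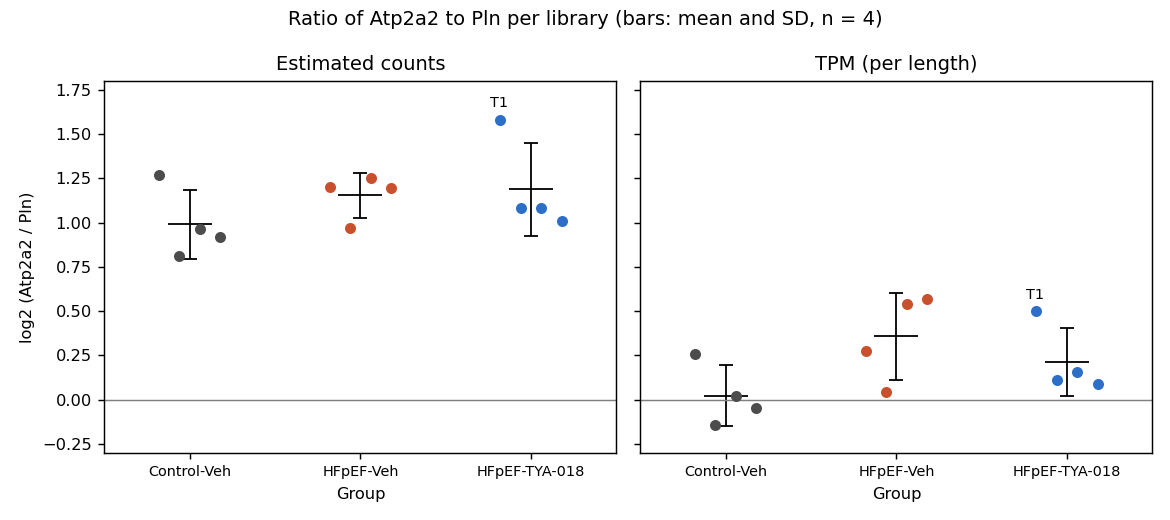
log2 ratio of Atp2a2 to Pln in each library, from estimated counts (left) and from TPM (right), with black bars for mean and SD (n = 4 per group) and a grey line at a ratio of 1. The groups overlap on both scales, and T1 is the highest library on counts at 1.581.

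Libraries of one group also varied among themselves, and some of these genes did so together. After subtraction of group means, log2(CPM + 1) of Ryr2 and Atp2a2 had a Pearson's r of 0.78 over the 12 libraries and 0.87 over the 11 without T1. Pln and Camk2d had an r of 0.86, which was 0.28 without T1. Atp2a2 and Pln had an r of -0.51, and -0.36 without T1. These 3 of 28 pairs were picked after all values were seen, and they are a description, since the values of a library share its RNA and its depth. The protein-coding genes most like Atp2a2 by the same measure, of 13247 compared, were Alg10b (r = 0.95), Man2a2 (r = 0.95), Nek9 (r = 0.94), Adcy6 (r = 0.94) and Cmya5 (r = 0.94). Spearman's rho was between 0.9 and 0.98 for these, and r without T1 between 0.93 and 0.95. The genes were picked by r over these same libraries, so high values here are in large part set by that choice. Sln and Slc8a1 had too few counts for such a measure.

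**Figure D5:**
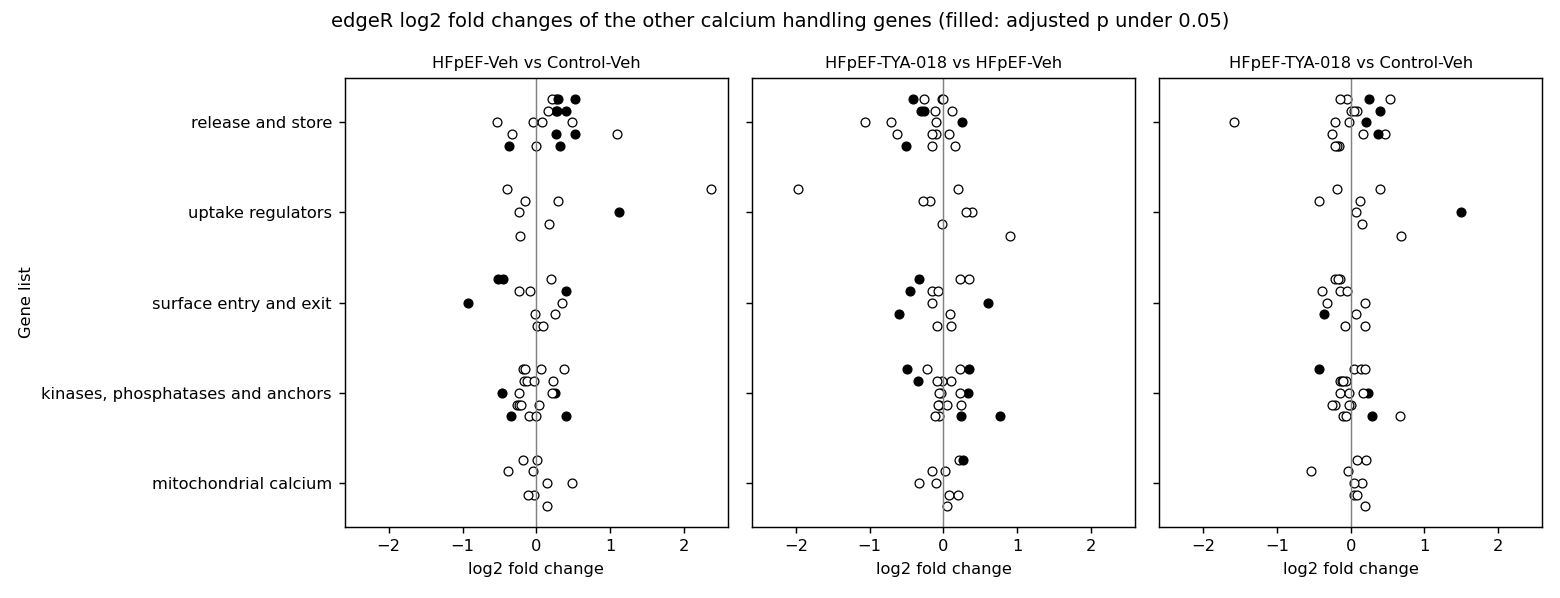
edgeR log2 fold changes of 68 other calcium handling genes in 5 lists and 3 comparisons, 1 point per gene, filled for an adjusted p under 0.05. The filled points of the release and store list lie mostly to the right in HFpEF-Veh against Control-Veh, with 9 called higher and 1 called lower.

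Around these genes, 71 other genes of calcium handling were listed in 5 groups, and 68 of them were tested. Called higher and lower were 13 and 6 in HFpEF-Veh against controls, 7 and 9 in treated against HFpEF-Veh mice, and 7 and 2 in treated mice against controls. The shares of all genes called higher and lower were 10.9% and 10.3%, 8.93% and 10.4%, and 3.12% and 2.74%, so that both directions after the dose, and the lower calls of the other comparisons, lay near the background. With effective lengths as offset the splits were 4 and 7, 6 and 4, and 2 and 0, and on log2(TPM + 1) they were 0 and 2, 17 and 0, and 0 and 0, where the median of all genes moved by up to 0.17. The direction of these lists thus depended on the scale, and the counts below are those of the CPM scale.

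Among partners of the release channel and the store, 9 of 19 tested genes were called higher and 1 lower when HFpEF-Veh was set against controls (the median on the log2 scale was 0.27, all genes -0.01). After the dose 1 was called higher and 4 lower (median -0.15), and against Control-Veh 4 higher and 0 lower (median 0.01). Of all genes, 10.9% and 10.3% were called higher and lower in HFpEF-Veh. The shares were 8.93% and 10.4% after the dose and 3.12% and 2.74% against Control-Veh. Asph, whose locus encodes junctin, was higher in HFpEF-Veh, at 103 ± 7.59 CPM, than among controls, at 85.6 ± 3.94 CPM (edgeR adjusted p = 0.0126) and remained at 102 ± 4.94 CPM in treated mice. Srl, which encodes the luminal calcium binding protein sarcalumenin, was 329 ± 22.6 CPM among controls, 400 ± 41.7 CPM among HFpEF-Veh mice (edgeR adjusted p = 0.023) and 434 ± 6.5 CPM among treated mice (edgeR adjusted p = 0.0144 against controls). Tmem38b, a potassium channel of the store membrane, was higher in HFpEF-Veh by 0.52 on the log2 scale (edgeR adjusted p = 0.00297) and in treated mice against controls by 0.37 (edgeR adjusted p = 0.0385). After the dose Sri, which encodes sorcin, fell by 0.42 (edgeR adjusted p = 0.00196). Itpr2, an inositol trisphosphate receptor, fell by 0.51 (edgeR adjusted p = 0.00431). Both had been higher in HFpEF-Veh than in controls, by 0.29 (edgeR adjusted p = 0.00941) and 0.32 (edgeR adjusted p = 0.0271). Neither was called in treated mice against controls (edgeR adjusted p = 0.238 and 0.271). Fkbp1b, the channel-stabilising calstabin 2, lay under 1 CPM in the mean of each group, at 0.532 ± 0.118, 0.745 ± 0.284 and 0.457 ± 0.11 CPM, and was not called (smallest edgeR adjusted p 0.155).

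Regulators of uptake were called in 1 of 8 cases in HFpEF-Veh against Control-Veh, in 0 of 8 after the dose (edgeR, 2 at an unadjusted p under 0.05, 0 by DESeq2) and in 1 of 8 against Control-Veh. In HFpEF-Veh 1 of 8 is near the 10.9% of all genes called higher. The share called higher was 8.93% after the dose and 3.12% against Control-Veh. The one gene called was Hax1, which encodes a partner of phospholamban, at 2.77 ± 0.785 CPM among controls, 6 ± 1.63 CPM among HFpEF-Veh mice (edgeR adjusted p = 0.0177) and 7.81 ± 2.6 CPM among treated mice (edgeR adjusted p = 0.0147 against controls). Strit1, which encodes the pump activator DWORF, had means of 21.4 ± 7.23, 18.2 ± 4.35 and 22.5 ± 2.19 CPM for controls, HFpEF-Veh and treated mice (smallest edgeR adjusted p 0.351). Atp2a1, the pump of fast skeletal muscle, averaged 0.418 ± 0.164 CPM among controls, 2.17 ± 3.33 CPM among HFpEF-Veh mice and 0.552 ± 0.118 CPM among treated mice, with a smallest edgeR adjusted p of 0.0654. Its mean in HFpEF-Veh rests on V2, at 7.16 CPM, while V1, V3 and V4 were at 0.602, 0.592 and 0.312 CPM. Summed skeletal muscle markers ranged from 1.47 to 2.21 CPM among controls, from 1.23 to 20.5 CPM among HFpEF-Veh and from 1.32 to 2.22 CPM among treated mice, with V2 again the highest, and their part in the Atp2a1 values was not tested.

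Surface entry and exit genes were called higher in 1 and lower in 3 of 12 cases in HFpEF-Veh, with the same counts, 1 and 3, after the dose and 0 and 1 against Control-Veh. All genes tested were called higher and lower in 10.9% and 10.3% of cases in HFpEF-Veh. The shares were 8.93% and 10.4% after the dose and 3.12% and 2.74% against Control-Veh. In HFpEF-Veh and after the dose, 1 of 12 is near the background. Cacnb2 and Cacna1c encode subunits of the L-type channel that triggers release. In HFpEF-Veh Cacnb2 fell by 0.93 on the log2 scale (from 43.5 ± 4.82 to 22.9 ± 2.71 CPM, edgeR adjusted p = 0.00072) and rose after the dose by 0.61 (35 ± 5.28 CPM, edgeR adjusted p = 0.00584). Cacna1c fell by 0.45 (from 200 to 147 CPM, edgeR adjusted p = 0.0227), and its step of 0.22 after the dose missed the threshold (edgeR adjusted p = 0.225). Stim1, a sensor of store filling, was higher in HFpEF-Veh by 0.41 (edgeR adjusted p = 0.002) and after the dose fell by 0.45 (edgeR adjusted p = 0.00164). Atp2b4, a calcium pump of the surface membrane, fell by 0.61 after the dose (edgeR adjusted p = 0.00144), and its difference from controls was -0.36 (edgeR adjusted p = 0.0332).

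Among kinases, phosphatases and anchors, 2 of 20 were called higher and 2 lower in HFpEF-Veh, 4 and 2 after the dose, and 2 and 1 against Control-Veh. The 2 and 2 of 20 lay near the background of HFpEF-Veh (10.9% and 10.3%). After the dose the background was 8.93% and 10.4%, and the 2 lower lay near it. Against Control-Veh it was 3.12% and 2.74%. The other CaMKII genes among them encode further forms of the kinase. In HFpEF-Veh Camk2a fell by 0.47 on the log2 scale (edgeR adjusted p = 0.00194) and rose after the dose by 0.33 (edgeR adjusted p = 0.0122), and Camk2g fell by 0.34 (edgeR adjusted p = 0.00311) and then rose by 0.24 (edgeR adjusted p = 0.0213). Camk2n1, which encodes a CaMKII inhibitor, was lower in treated mice than in both vehicle groups, at 25.5 ± 2.33 CPM against 36 ± 2.26 CPM for HFpEF-Veh (edgeR adjusted p = 0.00143) and 34.3 ± 1.58 CPM for controls (edgeR adjusted p = 0.00717). Of 9 genes of mitochondrial calcium handling, edgeR called 1 higher after the dose, which is near the 8.93% of all genes called so. It called 0 in HFpEF-Veh against controls (3 at an unadjusted p under 0.05, 1 called by DESeq2) and 0 in treated mice against controls (2 unadjusted, 1 by DESeq2).

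Markers of the cells in the tissue moved between the groups too. Of 8 ventricular heart muscle markers, 6 were called lower and 1 higher in HFpEF-Veh, and 3 were called higher after the dose, beside the 10.3% and 10.9% and the 8.93% of all genes called so. Their summed level ranged from 29800 to 41700 CPM among controls, from 26900 to 28900 CPM among HFpEF-Veh and from 31100 to 35600 CPM among treated mice, and none was at 0. Of 6 fibroblast markers, 4 were called higher in HFpEF-Veh and 5 lower after the dose, with sums of 423 to 635, 651 to 902 and 421 to 610 CPM for controls, HFpEF-Veh and treated mice. The 6 endothelial markers had 3 called higher and then 3 lower, with sums of 711 to 816, 869 to 1050 and 684 to 853 CPM, and all 5 red cell markers were called higher and then lower, with sums of 1550 to 2310, 4780 to 14100 and 2300 to 3570 CPM. Of 6 atrial markers, 2 were called lower in HFpEF-Veh, with sums of 132 to 249, 66.7 to 152 and 145 to 168 CPM. Most of these sums was Nppa, at means of 191, 112 and 148 CPM. edgeR called 0 of 4 smooth muscle markers in each comparison (at most 2 at an unadjusted p under 0.05, and 1 called by DESeq2 in HFpEF-Veh) and 0 of 3 skeletal muscle markers tested (0 unadjusted, 0 by DESeq2). The skeletal muscle marker Myh4 was at 0 in Control-Veh, and the adipocyte marker Plin1 in both groups of the model. In treated mice against controls, 1 ventricular marker was called higher (Actc1) and 1 lower (Tnnt2). Called higher were also 2 fibroblast markers (Col1a1 and Postn) and 1 of 3 adipocyte markers tested (Cidea). Cidea averaged 31.3 CPM in treated mice and 24 CPM in controls. The other adipocyte markers tested were far lower and not called, Adipoq at 0.137 and 0.147 CPM and Cidec at 0.266 and 0.227 CPM. Of all genes, 3.12% were called higher and 2.74% lower here, and 10.4% were called lower after the dose. In treated mice against controls edgeR called 0 of the endothelial, red cell and atrial markers (1 atrial and 1 red cell marker at an unadjusted p under 0.05, 0 by DESeq2). In HFpEF-Veh, Hrc, Pln and Trdn moved with the 6 heart muscle markers called lower, while Casq2 moved with Actc1, the 1 called higher. The part of cell composition in these differences was not tested.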

How the data were processed

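Estimated counts, TPM and effective lengths of 29564 genes in 12 libraries were analysed. The authors trimmed reads with fastp, quantified them with Salmon 1.6.0 against GENCODE transcripts of GRCm38 and summed them to genes with tximport. The submitters' processing notes name a human build, which was not used. The deposited estimated counts are not normalised, the deposited TPM are scaled per length and library by the authors, and the other deposited values are effective lengths in bases.

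Counts were rounded, filtered with filterByExpr (minimum count 10), scaled by TMM and fitted in 1 quasi-likelihood model over the 3 groups (edgeR 4.0.16, R 4.3.3), giving 9 residual degrees of freedom. Two-sided tests were adjusted by Benjamini-Hochberg over 14333 genes and called at 0.05. Ratios were compared by exact permutation tests. Alternatives used DESeq2 1.42.0, limma 3.58.1, other scalings and left-out libraries. Scripts were tested on simulated data. CPM is given as mean ± SD, n = 4. Nothing states separate litters or cages, and p-values measure the spread between these mice. Libraries were made with a stranded kit, and the strand setting of the quantification was not given in the sources used here.

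Positions and overlaps come from GENCODE M21 (GRCm38). The genes and lists were chosen with earlier results of these data known. All 10 genes were named, with pathway genes among the 5 smallest adjusted p per comparison and 6 set partners (Atp2a1, Strit1, Fkbp1b, Asph, Srl, Cacna1c). In all 3 tables, 0 columns of values were left out.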

Additional observations from a re-analysis of the deposited data

Results flagged for a closer look

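In 4 of 27 sets of 4 values checked, 1 library stood apart from the other 3 of its group by a gap that, as a share of the group's whole range, passed Dixon's critical value at 95% confidence. Chance alone gives about 1 such set in 20, but the sets are not independent, since the ratio of Atp2a2 to Pln contains the Pln values. Jph2 in Control-Veh was 232.9 CPM in C3 and 211.2 to 213.2 CPM in the other 3, a gap of 0.905 of the range. Pln in HFpEF-TYA-018 was 1595 CPM in T1 and 2015 to 2027 CPM in the others (0.971 of the range). Camk2d in HFpEF-TYA-018 was 38.88 CPM in T1 and 47.87 to 48.9 CPM in the others (0.897 of the range). The log2 ratio of Atp2a2 to Pln in HFpEF-TYA-018 was 1.581 in T1 and 1.007 to 1.081 in the others (0.871 of the range). T1 also had the largest total, 83.9 M estimated counts (M, 1e06), and the lowest mitochondrially encoded share, 35.4%, and the part of either was not tested.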

How the results depend on the processing

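No paired analysis was possible because each animal number occurred in a single group. The ratio of Slc8a1 to Atp2a2 gave no value, since Slc8a1 was listed at 0, so 3 of 6 planned ratio tests were made, and an atrial covariate for Sln was not run, since Sln was not tested. The calls of Casq2, Trdn and Hrc in HFpEF-Veh against Control-Veh held with RLE scaling, DESeq2, no filter, effective lengths as offset, without mitochondrially encoded genes and with only the 2 groups. They were lost on log2(TPM + 1), where 1 of the 10 genes was called in place of 4, and Casq2 on the other TPM scales too. On log2(TPM + 1), 172 of all 14333 genes were called in this comparison. For HFpEF-TYA-018 against HFpEF-Veh, 4 called became 1 with no filter, 2 with effective lengths as offset and 2 on TPM rescaled without mitochondrially encoded genes. DESeq2 called 6 there, and limma 5 on log2(TPM + 1) and log2(TPM + 0.1). Of all genes in this comparison, 2205 were called with no filter, 1217 with that offset, 718 on rescaled TPM and 3411 with DESeq2. The median log2 fold change of all genes was 0.17 on log2(TPM + 1) and 0.34 on log2(TPM + 0.1). Against Control-Veh, 4 became 0 with effective lengths as offset (edgeR, 3 at an unadjusted p under 0.05) and on every TPM scale (limma, 2 unadjusted). DESeq2 called 4, and 1513 of all genes. Of all genes, 203 were called with effective lengths as offset and 9, 11 and 25 on log2(TPM + 1), log2(TPM + 0.1) and rescaled TPM. Leaving out 1 library gave between 3 and 4, between 1 and 4 (1 without V1 or T2, 2 without V2, T1 or T3) and between 3 and 3 called genes in the 3 comparisons.

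Of the other calcium handling genes, 19 were called in HFpEF-Veh against Control-Veh, 11 with effective lengths as offset, 2 on log2(TPM + 1), 1 on log2(TPM + 0.1) and 1 on rescaled TPM, and between 13 (without C4) and 25 (without C1) with 1 library left out. For HFpEF-TYA-018 against HFpEF-Veh 16 became 10 with effective lengths as offset and 2 on rescaled TPM, and ranged from 11 to 18 with 1 library left out. Against Control-Veh 9 became 4 with no filter, 2 with effective lengths as offset and 5 with only the 2 groups. On every TPM scale 0 were called (limma, 14 or 15 unadjusted), while DESeq2 called 12. With 1 library left out the count ranged from 3 to 8. It was 3 without C4, T1 or T3 and 4 without C2, C3, T2 or T4. Calls over all genes fell on these scales too, to 203 with effective lengths as offset and to 9, 11 and 25 on the TPM scales. In HFpEF-Veh against Control-Veh they were 1445 with effective lengths as offset and 172, 301 and 431 on the TPM scales.

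Signs turned for Camk2d, at 0.02 with effective lengths as offset after the dose, 0.41, 0.49 and 0.24 on log2(TPM + 1), log2(TPM + 0.1) and rescaled TPM, and at 0.12, 0.13 and 0.06 on these TPM scales against Control-Veh. With effective lengths as offset they turned for Casq2 after the dose (-0.12), Hrc (-0.08) and Pln (-0.04) against Control-Veh. Hrc against Control-Veh ranged from -0.05 (without C1) to 0.08 (without C2) with 1 library left out, and was 0 without T1. The log2 ratio of Atp2a2 to Pln after the dose was -0.14 with TPM, and ranged from -0.1 (without T1) to 0.09 with 1 library left out, at -0.03 without V2. On TPM scales the median log2 fold change of all genes reached 0.34, and effective lengths differed between libraries. The cause of these changes was not tested. Of the 10 genes, Sln had too few counts to be tested.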
